A study of Mus musculus with 22 samples.

Results

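The HoxC cluster is a row of homeobox genes on mouse chromosome 15, and its members were followed here across arterial smooth muscle cells of 7 tissues. Members were chosen by symbol, by a rule that uses no values, though with earlier results of these data known. Of 9 listed genes, Hoxc4, Hoxc5, Hoxc6, Hoxc8, Hoxc9, Hoxc10, Hoxc11 and Hoxc12 were 8 rows of a table of 28099 genes. Hoxc13 is not analysed here. A low-value filter asked for a signal of 10 or more in 3 or more libraries. Of the 8 rows 7 passed it, Hoxc12 being the exception.

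RNA was sequenced from arterial smooth muscle cells, the contractile cells of the artery wall, which had been sorted by flow cytometry from mouse aorta, heart, lung, stomach, kidney and bladder (3 libraries each) and intestine (4 libraries). The mice of all groups except heart carried Cspg4-Dre, Acta2-CreERT and R26-GFP. Heart samples carried Cspg4-DreERT in place of Cspg4-Dre, so heart and its genotype cannot be told apart. All groups had received tamoxifen at 0.75 mg per 10 g for 3 days, and at most 10 ng of RNA entered each library. The sorted cells are therefore those marked through the Cspg4 and Acta2 loci, a mural cell proteoglycan gene and the smooth muscle actin gene. The labels give no age, sex or strain. Nor do they state whether the libraries of a tissue are from different mice, so the p-values cover only the variation among these libraries, part or all of which may be technical.

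Hox genes encode homeodomain transcription factors that give cells their position along the head-to-tail axis of the embryo. They lie in clusters, and genes with low numbers are switched on in anterior regions while genes with high numbers are switched on successively further back. Many adult mesenchymal cells, smooth muscle among them, keep a Hox pattern that reflects where in the body they came from. HoxC genes are best known from the vertebrae, the spinal cord, where Hoxc6, Hoxc8, Hoxc9 and Hoxc10 mark motor neurons of different levels, and the hindlimb.

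In genome build mm39 the rows span 100 kb of chromosome 15 on the plus strand, chr15:102845192-102945278. From the posterior end the order is Hoxc12 (ENSMUSG00000050328), Hoxc11 (chr15:102862862-102866143), Hoxc10 (ENSMUSG00000022484, chr15:102875231-102880328), Hoxc9 (ENSMUSG00000036139, chr15:102884874-102893531), Hoxc8 (ENSMUSG00000001657, chr15:102899039-102902543), Hoxc6 (ENSMUSG00000001661, chr15:102906689-102920313), Hoxc5 and Hoxc4 (ENSMUSG00000075394, chr15:102927366-102945278). Hoxc5 (ENSMUSG00000022485, chr15:102875878-102925861) has a long transcript that starts inside the first exon of Hoxc10. Both genes share 166 exonic bases in the GENCODE M21 annotation, so reads there could be split between them and the counting of Hoxc5 is uncertain to that extent. Hotair (ENSMUSG00000086903), a long non-coding RNA gene, lies on the minus strand between Hoxc11 and Hoxc12 at chr15:102852494-102856165.

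The cluster also holds microRNA genes, and their sequences are shown because one of them has matches in a single member of the cluster. The hairpin of miR-196a-2 lies between Hoxc10 and Hoxc9, and that of miR-615 lies in an intron of Hoxc5. The RefSeq mature sequences (GRCm38.p6, plus strand) are given 5′ to 3′ with the seed, bases 2 to 8, in capitals, and the seeds of the 4 differ.
mmu-miR-196a-5p: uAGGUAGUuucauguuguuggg
mmu-miR-196a-2-3p: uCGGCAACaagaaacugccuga
mmu-miR-615-5p: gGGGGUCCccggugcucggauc
mmu-miR-615-3p: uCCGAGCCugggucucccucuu
Letters complementary to these seeds were searched for in the longest GENCODE M21 3′ UTR of each HoxC gene. The shares over all genes count a gene with a match in any of its 3′ UTRs. ACTACCT, the complement of the miR-196a-5p seed, occurred in 6.55% of 21028 genes. Among HoxC genes it occurred in Hoxc8 and in none of the others, where it was found at 2 places of a 966-base 3′ UTR. Each is shown 5′ to 3′ in a window as long as the microRNA, bases 121 to 142 and 878 to 899 of the UTR, with the complement in capitals.
Hoxc8 first match: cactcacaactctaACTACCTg
Hoxc8 second match: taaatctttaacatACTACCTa
GGACCCC, the complement of the miR-615-5p seed, occurred in 6.97% of genes, and among HoxC genes once each in Hoxc6 and Hoxc11. The complements of the seeds of miR-196a-2-3p and miR-615-3p, GTTGCCG and GGCTCGG, were found in none of the HoxC 3′ UTRs searched. A match describes letters and not a working site, and the microRNAs themselves were not measured.

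Hoxc4 was the member with an entry in the RefSeq promoter table (250 bases before to 50 after a transcript start, GRCm38.p6, plus strand, chr15:103034145-103034444). Its promoter is shown because Hoxc4, the most anterior gene of the cluster, was higher in every intestine library than in any other library. Capitals mark the one match to AGGTCA, the half-site bound by retinoic acid receptors and many other nuclear receptors, which lies on the minus strand and starts 146 bases before that transcript start. In GENCODE M21 this is the start of the shorter Hoxc4 transcript, and a longer one begins further upstream, so the window lies inside the gene as the table spans it.
Hoxc4 promoter: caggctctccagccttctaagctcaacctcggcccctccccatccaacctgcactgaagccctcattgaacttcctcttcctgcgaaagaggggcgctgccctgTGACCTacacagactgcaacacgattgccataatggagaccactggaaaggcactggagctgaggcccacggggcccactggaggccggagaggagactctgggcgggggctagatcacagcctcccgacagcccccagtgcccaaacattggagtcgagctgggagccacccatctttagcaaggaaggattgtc
Over 32851 promoters of this length, AGGTCA occurred in 16.3% on either strand. TGATNNAT (8.85% of promoters), TGACAG (19.2%) and TTTATG (11.9%), searched as letters bound by Hox partners or by Cdx proteins, had no match in this window.

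Values below are deposited signal, whole numbers that the authors had scaled per library. The signal worth 1 read was recovered from the steps between values, and 3 such reads are taken as the floor. That floor was a signal of 28.3, 12.2 and 9.9 in aorta 1, 2 and 3 and of 24.3 in heart 3, and 1.3 to 4.0 in the other 18 libraries. Rebuilt depth ran from 629456 reads in aorta 1 to 1927765 in aorta 3, was 817157 in heart 3, and lay between 4389363 and 12708347 elsewhere. Lung 2 and 3 had signal above 0 for 24469 and 25608 genes, against 12223 to 20827 in the other libraries. The 8 smooth muscle markers were above 0 in every library, except Myocd in aorta 1. Floors cover counting error only. In sorted bulk RNA, fewer cells of a type and less RNA per cell cannot be told apart.

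Differences were tested with limma on log2(signal + 1) over 16917 genes, each tissue against the unweighted mean of the other 6 and then tissue against tissue, at a Benjamini-Hochberg adjusted p under 0.05. Differences are log2 values on this scale, with SE, and adding 1 makes them too small for weakly expressed genes. In aorta 1 and heart 3, where 1 read is worth a signal of 9.42 and 8.09, a single read can also make them too large. Across the 7 tissues as a whole, 7 of the 7 HoxC genes tested differed, with adjusted p from 7.62e-09 for Hoxc9 to 0.00195 for Hoxc8, where 59.6% of all tested genes did. Hoxc9, Hoxc10 and Hoxc11 passed the filter on low values through kidney and bladder. That they differ between tissues or are higher in kidney and bladder, and their part of the counts below, are no separate evidence.

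**Figure D1:**
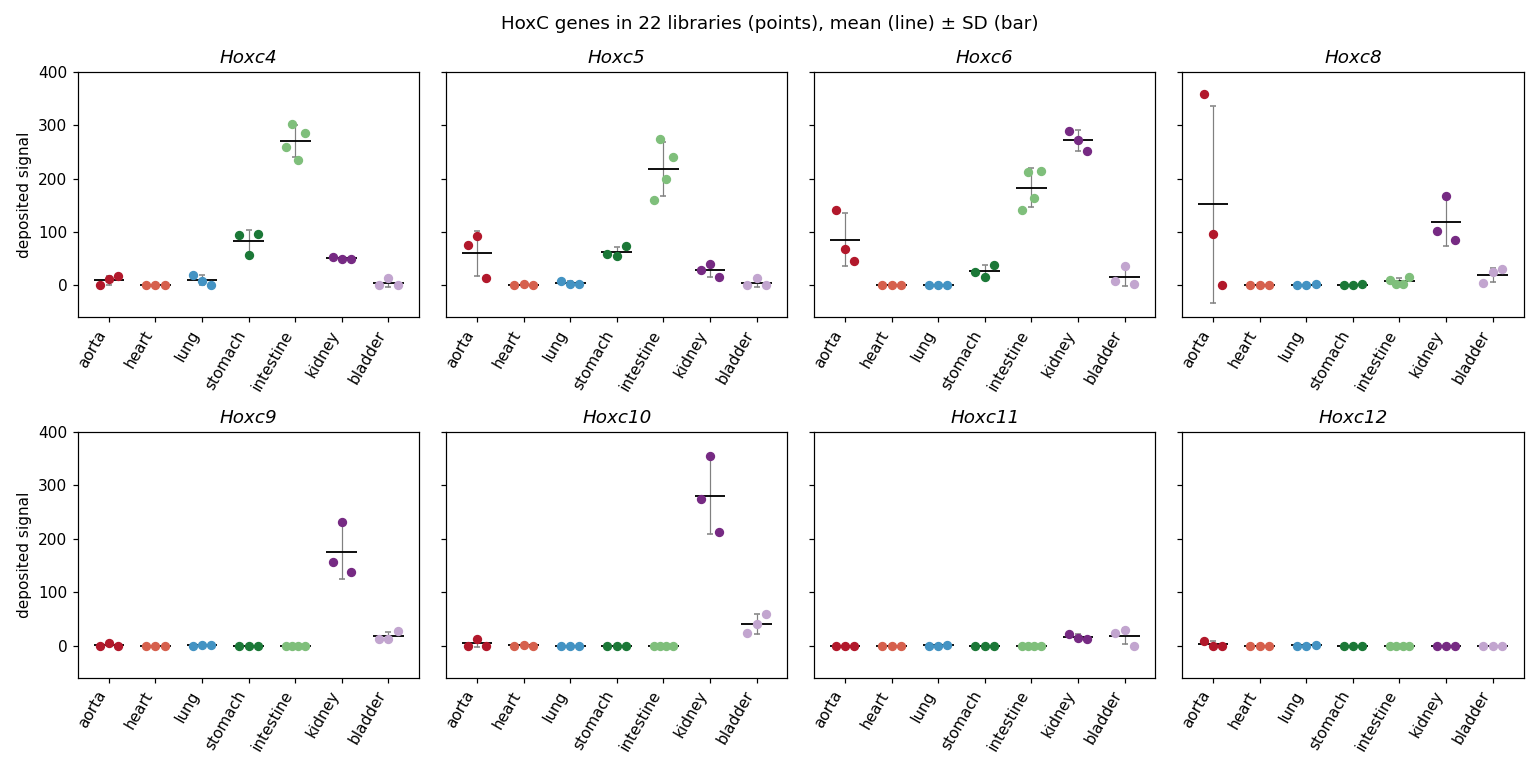
Deposited signal (y axis, linear) of 8 HoxC genes in each of 22 libraries, by tissue (x axis); points are libraries, the line is the mean and the bar is ± SD. Hoxc4 and Hoxc5 stand highest in intestine, Hoxc6 in kidney and intestine, Hoxc9 and Hoxc10 in kidney, while Hoxc8 in aorta spreads from 0 to 358.

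Hoxc4, the most anterior member, was highest in intestinal arterial cells and next in stomach and kidney. Its signal was 260, 303, 235 and 285 in the intestine libraries. In stomach it was 94, 57 and 96, and in kidney 54, 49 and 50. Intestine, stomach and kidney did not overlap with each other or with the rest. In aorta it was 0, 12 and 17, in lung 19, 9 and 0, in bladder 0, 14 and 0, and in all 3 heart libraries 0. These 4 tissues overlapped, and the aorta values stood for at most 5 reads. Against the other 6 tissues Hoxc4 was higher in intestine by 4.99 ± 0.78 (log2, SE; limma adjusted p = 8.85e-05) and in stomach by 2.97 ± 0.88 (adjusted p = 0.0209). The stomach difference did not pass without any one of the stomach libraries (adjusted p = 0.066 to 0.105). Of neighbours in the order of means, kidney and aorta differed (3.08 ± 1.15, limma adjusted p = 0.0403), while intestine and stomach (1.74 ± 1.08, adjusted p = 0.613) and stomach and kidney (adjusted p = 0.878) did not pass. The step from kidney to aorta was lost under 11 of 31 alternatives, among them leaving out aorta 1 (adjusted p = 0.225) or any one kidney library (adjusted p = 0.0743 to 0.0956), edgeR (adjusted p = 0.182) and DESeq2 (adjusted p = 0.106).

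Hoxc5, its neighbour, had the same high tissue and a level in aorta. Intestine libraries had 159, 274, 199 and 241, and stomach libraries 59, 55 and 73. In aorta the values were 75, 93 and 13, and in kidney 29, 40 and 15. Intestine was above every other library, stomach and aorta overlapped, and aorta overlapped with kidney. Lung at 9, 2 and 2, bladder at 0, 14 and 0, and heart at 0, 2 and 0 were lowest. Hoxc5 was higher in intestine by 4.37 ± 0.65 (limma adjusted p = 5.16e-05) and in stomach by 2.30 ± 0.73 (adjusted p = 0.0306), the latter not passing without any one stomach library (adjusted p = 0.108 to 0.139). In aorta it was higher by 1.79 ± 0.73 (limma adjusted p = 0.0469). That call rested on 4 to 23 rebuilt reads per aorta library and was lost under 19 of 30 alternatives. These included leaving out aorta 1 (adjusted p = 0.191) or aorta 2 (adjusted p = 0.227), array weights (adjusted p = 0.465), no filter (adjusted p = 0.0697) and leaving out most single libraries of the other tissues (adjusted p = 0.0547 to 0.0615). The step between neighbours that passed was kidney over bladder (3.45 ± 0.96, limma adjusted p = 0.0191), which was lost without kidney 1 or 2 or bladder 1 or 3 (adjusted p = 0.0661 to 0.11).

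Hoxc6, a gene of the thoracic level in vertebrae, was high in kidney and intestine together. Its signal was 290, 273 and 252 in kidney and 141, 213, 164 and 214 in intestine, so that every kidney library exceeded every intestine library. Aorta libraries had 141, 69 and 46 from 14 to 17 rebuilt reads, and stomach libraries 25, 16 and 38. Aorta 1 equalled the lowest intestine library. Bladder, at 9, 37 and 3, overlapped with stomach, and in heart and lung no library exceeded a signal of 1. Against the other 6 tissues Hoxc6 was higher in kidney by 4.26 ± 0.56 (limma adjusted p = 2.46e-05), in intestine by 3.57 ± 0.49 (adjusted p = 2.3e-05) and in aorta by 2.14 ± 0.56 (adjusted p = 0.00413). It was lower in heart by -4.79 (limma adjusted p = 1.5e-05) and in lung by -4.40 ± 0.56 (adjusted p = 5e-05). The aorta difference did not pass with libraries weighted by their quality (adjusted p = 0.335). Kidney and intestine did not differ past the threshold (0.59 ± 0.68, adjusted p = 0.783).

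Hoxc6 was also the member that differed between stomach and intestine, at 26.3 ± 11.1 against 183 ± 36.5 (SD, n = 3 and 4; -2.81 ± 0.68, limma adjusted p = 0.0141). That call was lost without stomach 1 (adjusted p = 0.0655) or stomach 2 (adjusted p = 0.116) and with the replicate number as a block (adjusted p = 0.0554). For stomach against intestine 1 of 7 HoxC genes passed, where 6.12% of all tested genes did. Hoxc4 (1.74 ± 1.08 higher in intestine, limma adjusted p = 0.613) and Hoxc5 (1.77 ± 0.90, adjusted p = 0.422) did not pass, although their libraries did not overlap.

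Hoxc8 lies in the middle of the cluster and is known for the thoracic skeleton and the motor neurons that supply the forelimb. It was carried by aorta and kidney, but aorta did not give a settled level. The aorta libraries had 358, 97 and 0, from 38, 24 and 0 rebuilt reads, and the 0 in aorta 3 allows a signal of up to 9.9. Kidney libraries had 102, 168 and 85, and bladder libraries 5, 25 and 30. Intestine was at 10, 3, 3 and 15, stomach at 0, 0 and 2, lung at 0, 1 and 2, and heart at 0 throughout. Kidney did not overlap with any tissue but aorta. Hoxc8 was higher in kidney than in the other 6 tissues by 4.61 ± 1.06 (limma adjusted p = 0.00723), and the aorta difference of 2.51 ± 1.06 did not pass (adjusted p = 0.0546). No step between neighbours in its order passed, although aorta exceeded stomach (4.51 ± 1.39, limma adjusted p = 0.013). That difference was lost without aorta 1 (adjusted p = 0.0914) or aorta 2 (adjusted p = 0.0564). Hoxc8 is the member with the 2 miR-196a-5p seed matches printed above.

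Hoxc9, which in mouse embryos sets the thoracic fate of motor neurons, opened the posterior, kidney and bladder block. Its signal was 156, 232 and 138 in kidney and 12, 13 and 27 in bladder. It was at 0 in all stomach, intestine and heart libraries and at most 4 in aorta and 2 in lung. Kidney, bladder and the rest did not overlap. The floor of aorta 1 (28.3) was above every bladder value and that of heart 3 (24.3) lay among them. In those libraries a level below bladder is therefore not shown. Hoxc9 was higher in kidney by 6.47 ± 0.43 (limma adjusted p = 2.43e-09) and in bladder by 2.59 ± 0.43 (adjusted p = 0.000374). Kidney exceeded bladder by 3.32 ± 0.57 (limma adjusted p = 0.000417), and bladder exceeded aorta by 3.33 ± 0.57 (adjusted p = 0.000239). The step from bladder to aorta did not pass with quantile normalisation (limma adjusted p = 0.418) or array weights (limma adjusted p = 0.0985). Nor did it pass with edgeR (adjusted p = 0.0731) or DESeq2 (adjusted p = 0.061) on rebuilt reads.

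Hoxc10, a gene of the lumbar spinal cord and hindlimb, had the same shape at a higher level. Kidney libraries had 274, 356 and 213 and bladder libraries 23, 40 and 60. The single value above 1 elsewhere was 12 in aorta 2, from no more than 3 reads. The differences were 6.97 ± 0.55 in kidney (limma adjusted p = 2.3e-08) and 3.68 ± 0.55 in bladder (adjusted p = 0.000135). Kidney exceeded bladder by 2.82 ± 0.72 (adjusted p = 0.011). Per kb of exon, the ratio of Hoxc10 to Hoxc9 was 2.24, 1.95 and 1.96 in the kidney libraries and 2.44, 3.92 and 2.83 in those of bladder. Bladder ratios were all above those of kidney, a difference that was not tested.

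Hoxc11, which with its paralogues Hoxa11 and Hoxd11 is required for the metanephric kidney in mice, was low wherever it was found. Kidney libraries had 22, 14 and 12 and bladder libraries 23, 29 and 0, and 1 in lung 3 was the only other value above 0. The 2 tissues overlapped, and the 0 in bladder 3 allows a signal of up to 4.0. Floors of aorta 1 (28.3) and heart 3 (24.3) were above every kidney value, and that of aorta 2 (12.2) lay among them. In those libraries a level of Hoxc11 below kidney is therefore not shown. Hoxc11 was higher in kidney by 3.46 ± 0.61 (limma adjusted p = 0.00077) and in bladder by 2.43 ± 0.61 (adjusted p = 0.00974). With DESeq2 on rebuilt reads neither passed (adjusted p = 0.112 and 0.0986), and the bladder call was lost without bladder 1 (limma adjusted p = 0.111) or bladder 2 (adjusted p = 0.146). Kidney and bladder did not differ past the threshold (adjusted p = 0.592).

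Hoxc12, the most posterior gene with a row, was at a signal of 9 in aorta 1, which is 1 rebuilt read, and of 2 in lung 3, and at 0 in the other 20 libraries. It was not tested. Hotair, next to it on the opposite strand, was at 24, 9 and 12 in bladder and 4, 0 and 0 in kidney, with 1 in lung 1 and lung 2 and 0 in every other library. Hotair did not pass the filter and was not tested. Floors of aorta 1 (28.3) and heart 3 (24.3) were above every bladder value, and those of aorta 2 (12.2) and aorta 3 (9.9) lay among them. A level of Hotair below bladder is therefore not shown in those libraries. The bladder libraries were thus all above the kidney libraries for Hotair, whereas for Hoxc9 and Hoxc10 kidney was above bladder. Whether the counting used strand is not given in the sources used here.

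Counted by tissue, kidney had 5 of 7 tested HoxC genes higher than the other 6 tissues (Hoxc6, Hoxc8, Hoxc9, Hoxc10 and Hoxc11), where 6.35% of all tested genes were higher there, and 0 lower (background 4.11%). That 0 was also found at an unadjusted p under 0.05 and with edgeR and DESeq2. Of the 5 higher genes, Hoxc9, Hoxc10 and Hoxc11 passed the filter through kidney and bladder and are no separate evidence. Hoxc4 (2.22 ± 0.88, limma adjusted p = 0.122) and Hoxc5 (0.88 ± 0.73, adjusted p = 0.488) did not pass in kidney. The median log2 difference of the 7 was 4.26 in kidney, against 0.22 over all tested genes. Nephron markers moved with the tissue: 5 of 6 were above 0 in every kidney library, with sums of 4217, 6028 and 12799, against 0 to 142 elsewhere. The part of nephron RNA in the HoxC levels was not tested.

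Intestine had 3 of 7 higher (Hoxc4, Hoxc5 and Hoxc6), where 15.5% of all tested genes were, and 2 lower (Hoxc9 and Hoxc10), where 9.97% were. Stomach had 2 higher (Hoxc4 and Hoxc5; background 13.4%) and the same 2 lower (background 6.93%). Both lower calls in each tissue come from libraries at 0 set against kidney and bladder, and edgeR on rebuilt reads made neither. Gut epithelial markers stood at sums of 1428 to 1740 in stomach and 1778 to 2932 in intestine and at no more than 55 elsewhere. In intestine 6 of 6 of them were above 0 in every library and in stomach 5 of 6, with Cdx1 at 0. Their part in the HoxC levels was not tested.

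Bladder had 3 of 7 higher (Hoxc9, Hoxc10 and Hoxc11; background 8.31%) and 2 lower (background 7.4%). The 3 higher genes passed the filter through kidney and bladder, so their count is no separate evidence. The lower ones were Hoxc4 (-2.91, limma adjusted p = 0.0287) and Hoxc5 (-3.15, adjusted p = 0.00547), each with signal in bladder 2 alone. Both were lost without bladder 1 or without bladder 3 (limma adjusted p = 0.0613 to 0.207). Urothelial markers summed to 251, 347 and 5043 in the bladder libraries, against 910 to 1176 in stomach and 0 to 317 in the other tissues. Fibroblast markers summed to 18085 to 28584 in bladder, and elsewhere from 4778 in kidney to 35760 in aorta. Leukocyte markers, 5 of 6 above 0 in every bladder library, summed to 2095, 1337 and 2817 there, against 8 to 1618 elsewhere. Among the bladder libraries, Hoxc8, Hoxc9 and Hoxc10 were highest and Hoxc6 and Hoxc11 lowest in bladder 3. That library had the most urothelial marker signal and the least smooth muscle marker signal (9818). The part of these cell types was not tested.

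In heart 0 of 7 were higher (background 6.03%) and 6 lower (background 12.4%), and in lung 0 were higher (background 4.43%) and 2 lower (background 3.48%). Both counts of 0 held at an unadjusted p under 0.05, with edgeR and with DESeq2. Summed HoxC signal was 0 to 4 per heart library, and no HoxC gene exceeded 3 reads in any of them. Of the lower calls in heart, 3 were lost under alternatives: Hoxc8 without any one heart library (limma adjusted p = 0.0708 to 0.125), Hoxc10 without heart 1 (adjusted p = 0.0545) or heart 3 (adjusted p = 0.0812), and Hoxc9 with quantile normalisation (adjusted p = 0.111) or DESeq2 (adjusted p = 0.141). In lung the lower genes were Hoxc6 and Hoxc10, and Hoxc10 did not pass without lung 1 (limma adjusted p = 0.051) or lung 2 (adjusted p = 0.0513).

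In aorta 2 of 7 were higher (Hoxc5 and Hoxc6; background 9.15%) and 1 lower (Hoxc9, -1.29, limma adjusted p = 0.0188; background 42.8%). The aorta background was lopsided, since the median of all genes there was -1.04, and quantile normalisation moved it to 0.11. Under that scaling the Hoxc9 difference turned to 0.83 and did not pass (limma adjusted p = 0.193). The values were 0, 4 and 0, from at most 1 read, and give no direction. Fibroblast markers, 6 of 6 above 0 in every aorta library, summed to 35760, 16031 and 7519 in aorta 1, 2 and 3. Hoxc6 at 141, 69 and 46 and Hoxc8 at 358, 97 and 0 stood in the same order, as did the signal worth 1 read. Hoxc4 at 0, 12 and 17 stood in the reverse order, and Hoxc5 at 75, 93 and 13 in neither. Skeletal muscle markers summed to 17018 in aorta 3 against 244 and 126 in aorta 1 and 2. The part of these cells or of depth in the aorta HoxC levels was not tested.

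**Figure D2:**
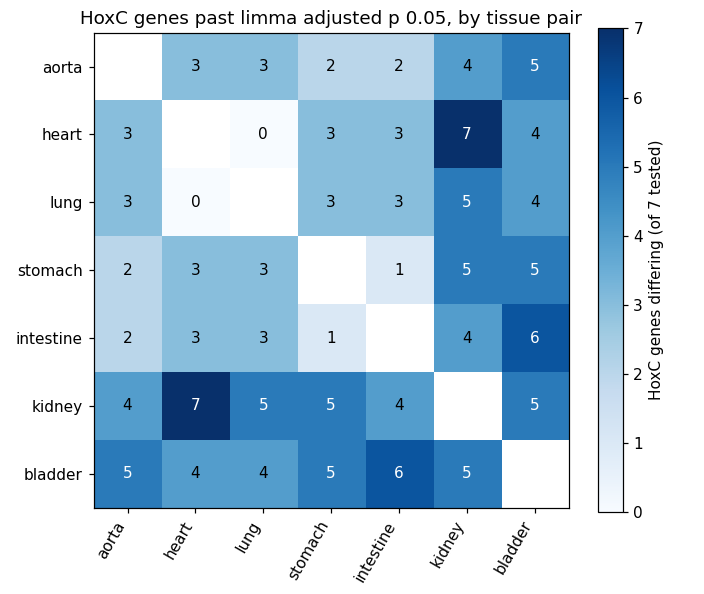
Number of HoxC genes, of 7 tested, that differed between each pair of tissues (rows and columns; colour and digits give the number) at limma adjusted p under 0.05. Heart and kidney differed in 7, intestine and bladder in 6, heart and lung in 0.

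Over the 21 tissue pairs, 77 of 147 gene-by-pair differences passed, against 20.9% over all tested genes. Hoxc6 passed in 15 pairs, Hoxc5 in 13, Hoxc4, Hoxc9 and Hoxc10 in 11 each, Hoxc11 in 10 and Hoxc8 in 6. Pairs share their libraries and are not independent of each other. Heart and kidney differed in 7 of 7 HoxC genes (background 9.11%), and intestine and bladder in 6 of 7 (background 17.2%). For heart and kidney, edgeR and DESeq2 each called 6. In that pair Hoxc11 was lost with quantile normalisation (limma adjusted p = 0.0968), edgeR (adjusted p = 0.0521) and DESeq2 (adjusted p = 0.232). Hoxc5 was lost there with quantile normalisation (limma adjusted p = 0.136). Kidney and bladder, the 2 tissues with posterior HoxC signal, differed in 5 of 7 (background 14%), with kidney higher in each. Hoxc4 was higher in kidney than in bladder by 4.40 ± 1.15 (limma adjusted p = 0.0131; lost without bladder 1, 0.0572, or bladder 3, 0.0759) and Hoxc6 by 4.57 ± 0.73 (adjusted p = 0.000208). Heart and lung differed in 0 of 7 (background 7.16%). In that pair 1 was lower in heart at an unadjusted p under 0.05, edgeR called 0 and DESeq2 called 1.

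Aorta differed from heart in Hoxc5, Hoxc6 and Hoxc8 (3 of 7, background 19.3%) and from lung in the same 3 (background 21.4%), with aorta higher in each. Hoxc6 was higher in aorta than in heart by 5.94 (limma adjusted p = 1.6e-05). Aorta differed from stomach in 2 (background 47.3%), Hoxc8 being higher and Hoxc4 lower in aorta, and from intestine in 2 (background 52.3%), Hoxc4 and Hoxc5, both lower in aorta. Hoxc5 in the latter pair was lost under 17 of 31 alternatives. From kidney it differed in 4, each lower in aorta (background 40.1%), and from bladder in 5 (background 32.7%), Hoxc5 and Hoxc6 being higher and Hoxc9, Hoxc10 and Hoxc11 lower in aorta. These counts turned with the tool. Against stomach, limma called 1 higher and 1 lower in aorta, edgeR 3 and 0, and DESeq2 4 and 1. Against intestine limma called 0 higher and 2 lower, edgeR 2 and 1, and DESeq2 3 and 1. The genes lower in aorta numbered 2 with edgeR and 3 with DESeq2 against kidney, and 1 with either against bladder. Hoxc8 in aorta was lost against heart and against lung without aorta 1 (limma adjusted p = 0.0896 and 0.204) or aorta 2 (adjusted p = 0.057 and 0.116). Hoxc5 was lost against lung without aorta 1 (adjusted p = 0.0567), aorta 2 (0.0553), lung 2 (0.0765) or lung 3 (0.0697), and Hoxc8 against lung without any one lung library (0.0673 to 0.112).

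Heart differed from stomach in 3 (background 25.7%) and from intestine in 3 (background 29.1%), Hoxc4, Hoxc5 and Hoxc6 each time. Lung differed from stomach (background 19.4%) and from intestine (background 21.9%) in the same 3 genes. Between lung and stomach, Hoxc4 was lost without lung 3 (limma adjusted p = 0.159) or any one stomach library (adjusted p = 0.0539 to 0.0793). From bladder, heart differed in 4 (background 14%) and lung in 4 (background 10.1%), namely Hoxc6, Hoxc9, Hoxc10 and Hoxc11. Hoxc6 was lost in both pairs with a pseudocount of 10 (limma adjusted p = 0.096 and 0.125), and against lung without lung 1 (0.0737) or bladder 2 (0.0902). Hoxc11 was lost without bladder 1 or 2 (limma adjusted p = 0.0696 and 0.0705 for heart, 0.15 and 0.147 for lung). DESeq2 called Hoxc11 in neither (adjusted p = 0.201 and 0.172). Lung and kidney differed in 5 (background 10.6%), which were Hoxc6 and the 4 genes from Hoxc8 to Hoxc11. Hoxc11 was lost there with DESeq2 (adjusted p = 0.167). Stomach differed from kidney in 5 (background 12.6%) and from bladder in 5 (background 16.3%). In both pairs Hoxc11 was lost with DESeq2 (adjusted p = 0.0986 and 0.0815). Intestine differed from kidney in 4 (background 12.3%). Of the last, Hoxc5 was higher in intestine (2.99 ± 0.90, limma adjusted p = 0.0322; 0.0516 to 0.149 without any one library of either tissue) and Hoxc9, Hoxc10 and Hoxc11 were lower.

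Intestine and bladder stood at opposite ends of the cluster. Hoxc4 was higher in intestine by 6.78 ± 1.08 (limma adjusted p = 0.000137), Hoxc5 by 6.44 ± 0.90 (adjusted p = 3.07e-05) and Hoxc6 by 3.98 ± 0.68 (adjusted p = 0.000306). Hoxc9, Hoxc10 and Hoxc11 were lower in intestine, by -4.11 ± 0.53 (limma adjusted p = 1.3e-05), -5.29 ± 0.67 (adjusted p = 1.02e-05) and -3.16 ± 0.75 (adjusted p = 0.00559; 0.0557 without bladder 2). Hoxc8, between the 2 sets, was the one that did not pass.

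**Figure D3:**
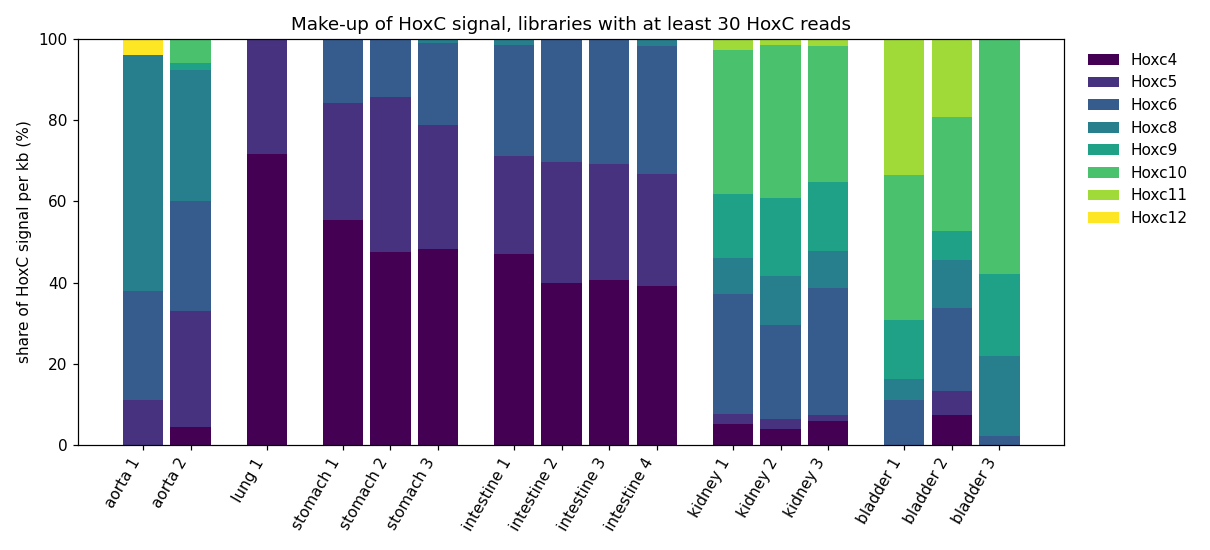
Make-up of the HoxC signal per kb of exon (y axis, percent) in each library with at least 30 HoxC reads (x axis); colours are the genes in order along the cluster. Stomach and intestine bars hold Hoxc4, Hoxc5 and Hoxc6 almost alone, kidney bars hold Hoxc4 to Hoxc11, and bladder bars differ from each other.

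Divided by exonic length, so that genes can be compared, the make-up of the HoxC signal differed between tissues as well as its size. Summed HoxC signal was 941 ± 184 in kidney, 680 ± 111 in intestine and 172 ± 40.9 in stomach (SD, n = 3, 4 and 3). In aorta it was 315 ± 255, in bladder 121 ± 50, in lung 17.3 ± 9.45 and in heart 1.33. The leading gene per kb was Hoxc4 in intestine (105 ± 11.5 signal per kb) and stomach and Hoxc10 in kidney (147 ± 37.6) and bladder. In kidney Hoxc6 followed at 113 ± 7.9 per kb, then Hoxc9 at 72.2 ± 20.5 and Hoxc8 at 41.8 ± 15.5. Along the kidney cluster, Hoxc8 and Hoxc9 therefore lay below both Hoxc6 and Hoxc10.

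As shares of the per-kb signal, Hoxc4 to Hoxc6 made up 99.7% in stomach, 98.9% in intestine, 35.1% ± 4.94 in kidney and 15.7% ± 16.3 in bladder. In the 2 aorta libraries with at least 30 HoxC reads, Hoxc8 held 32.4% and 58.0%. The gut tissues differed in the balance inside this set. The per-kb ratio of Hoxc4 to Hoxc6 was 3.53, 3.34 and 2.37 in stomach and 1.73, 1.33, 1.34 and 1.25 in intestine, without overlap. In kidney the same ratio was 0.17, 0.17 and 0.19. The differences in ratio were noticed in these values and not tested.

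**Figure D4:**
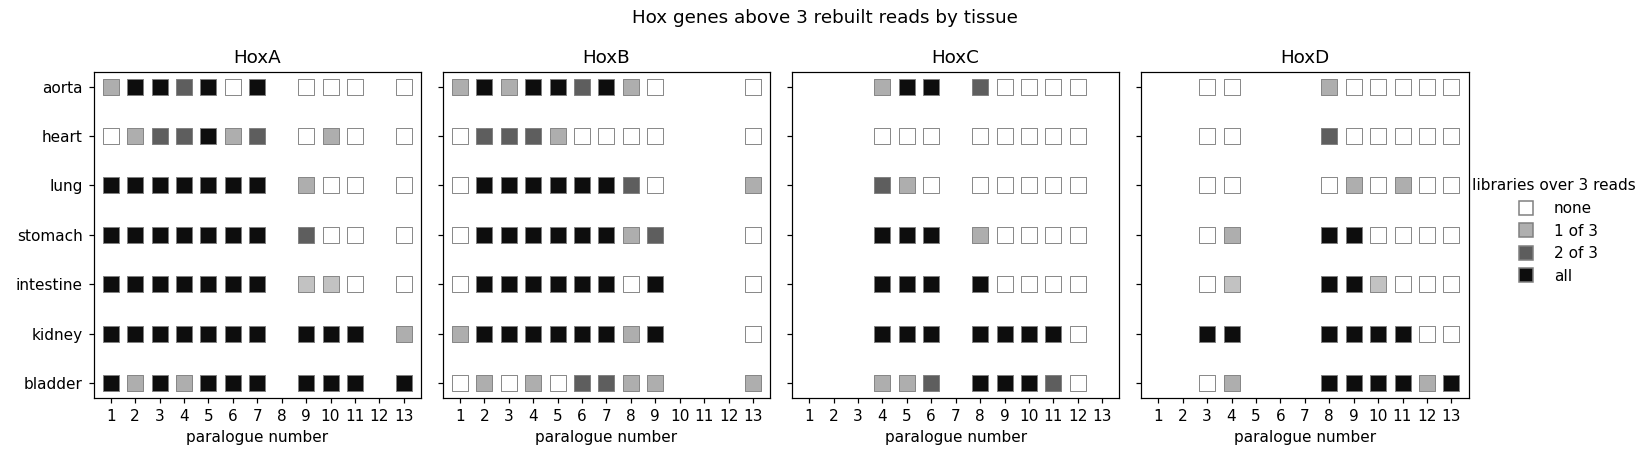
Hox genes of each cluster (x axis, paralogue number; no square where no row was used) in each tissue (y axis); black marks a gene above 3 rebuilt reads in every library, grey in some (palest in 1 of the 4 intestine libraries) and white in none. HoxC signal reaches Hoxc6 in stomach, Hoxc8 in intestine and Hoxc11 in kidney, is white throughout in heart, and in bladder is black from Hoxc8 to Hoxc10.

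The posterior limit of HoxC was read as the last gene above 3 rebuilt reads in every library of a tissue. It was Hoxc6 in aorta and stomach, Hoxc8 in intestine, Hoxc10 in bladder and Hoxc11 in kidney, and heart and lung had none. Deeper libraries reach lower signals, so the aorta limit is held to a coarser floor than the others. With 1 library enough, aorta and stomach reached Hoxc8 as intestine did, bladder reached Hoxc11 and lung Hoxc5, and heart still had none. The stomach value stood for 4 reads.

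The limits of the other clusters followed those of HoxC in some tissues and not in others. In kidney HoxA reached Hoxa11 and HoxD reached Hoxd11, and in bladder they went on to Hoxa13 and Hoxd13. HoxA reached Hoxa7 and HoxB reached Hoxb7 in every lung library, where HoxC had none, and Hoxb5 alone was at 626 ± 32.2 and Hoxb6 at 391 ± 68 in lung. HoxA was at Hoxa5 in heart, while HoxB and HoxC had no gene above 3 reads in every heart library. HoxD had none in heart, lung or aorta and reached Hoxd9 in stomach and intestine. HoxB reached Hoxb9 in intestine and kidney and had none in bladder, where HoxC had Hoxc8 to Hoxc10. HoxC held 26.9% ± 0.991 of all Hox signal per kb in intestine, 20.2% ± 2.93 in kidney, 15.4% ± 1.57 in stomach and 10.9% ± 6.14 in aorta. Its share was 4.99% ± 1.79 in bladder, 0.59% in heart and 0.562% in lung.

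Hoxa10 and Hoxa11 had another balance between bladder and kidney than Hoxc10 and Hoxc11, while Hoxa9 was higher in kidney as Hoxc9 was. Hoxa9 was at 523 ± 56.5 in kidney and 184 ± 139 in bladder, and Hoxc9 at 175 ± 49.9 and 17.3 ± 8.39. For Hoxa10 the bladder libraries (856 to 1092) overlapped with those of kidney (831 to 1115). Hoxa10 had a signal of 1012 ± 135 in bladder against 928 ± 162 in kidney, whereas Hoxc10 was at 41 ± 18.5 and 281 ± 71.8. Hoxa11 was at 615 ± 229 in bladder and 142 ± 35.2 in kidney, against 17.3 ± 15.3 and 16 ± 5.29 for Hoxc11. These are deposited signals, not divided by length, to be read between tissues and not between genes, and the difference in balance was not tested. Counts of tested genes that differed over the 7 tissues were 10 of 11 for HoxA, 7 of 7 for HoxB and 6 of 6 for HoxD, where 59.6% of all tested genes did.

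Across the 22 libraries the members fell into neighbours that moved together. Pearson's r of log2(signal + 1) was 0.98 between Hoxc9 and Hoxc10, 0.82 between Hoxc9 and Hoxc11, 0.84 between Hoxc4 and Hoxc5 and 0.81 between Hoxc5 and Hoxc6. It was 0.69 between Hoxc8 and Hoxc10 and 0.65 between Hoxc6 and Hoxc8, and 0.07 between Hoxc4 and Hoxc8 and -0.03 between Hoxc4 and Hoxc10. These are descriptions over libraries that share tissues and depth, and zeros shared by many libraries raise them.

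By the same r over 22 libraries, the tested genes outside the cluster most like Hoxc9 were Hoxd11 (0.973), Hoxa9 (0.931) and Hoxd10 (0.918). Those most like Hoxc10 were the same 3, Hoxd11 (0.933), Hoxd10 (0.915) and Hoxa9 (0.913). Hoxd11 was at a mean signal of 83 in kidney and 16.7 in bladder and at 0 in the aorta, heart, stomach and intestine libraries. For Hoxc11 they were Apela (0.918), a peptide hormone gene, Stpg3 (0.908) and Hoxd10 (0.904).

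The anterior genes had no Hox gene among their nearest. Hoxc4 was most like Cdhr5 (0.877), Mlxipl (0.876) and Hnf4a (0.875), of which Cdhr5 and Hnf4a are expressed by gut and kidney epithelium. Hnf4a was at a mean of 867 in stomach, 883.8 in intestine and 82.7 in kidney, the 3 tissues with the most Hoxc4, and the part of epithelial RNA in the Hoxc4 level was not tested. Hoxc5 was most like Dhrs11 (0.867), Cela1 (0.841) and Tes (0.833), and Hoxc6 most like Tes (0.871) and Fbln7 (0.807). Tes, which encodes a focal adhesion protein, was at a mean of 1629.3 in aorta, 1437.3 in kidney and 1356.8 in intestine, and at 176.3 in heart. Hoxc8 was most like Cldn10 (0.793), Rergl (0.765) and Igfbp1 (0.764), and Rergl was at 1035.3 in kidney and 480 in aorta.

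Genes that act with or upstream of HoxC were counted from lists. Of the TALE cofactors that bind DNA with Hox proteins, 6 of 9 differed over the tissues, Meis1, Meis2 and Meis3 among them, near the background of 59.6%. In heart and lung, where HoxC signal was near 0, Meis1 was at 149 ± 86.5 and 673 ± 59.7, and Meis3 at 320 ± 35.2 and 569 ± 101. Of 11 tested axial regulators, which include Cdx factors and the enzymes that make and break down retinoic acid, 9 differed. Cdx1, a posterior Hox activator in embryos that adult gut epithelium also expresses, was at 674 ± 233 in intestine and at most 2 in any other library. Aldh1a2, which makes retinoic acid, was highest in intestine (1765 ± 164) and at 0 in aorta, and Cyp26a1, which breaks it down, was at 250 ± 144 in heart and at most 7 elsewhere. Among 15 Polycomb and trithorax genes, whose products keep Hox clusters silent or active, 7 differed, and of 11 tested genes that flank the cluster 5 did, both below the background.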

How the data were processed

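The authors deposited 22 columns of signal for 28099 genes; judging by the numbers themselves, each library had been scaled and rounded to whole values. The build was mm39 per the submitters' processing notes, which name, without role or order, featureCounts 2.0.4, STAR 2.7.10a, DESeq and DESeq2 1.36.0, Trimmomatic 0.39 and Picard 3.0.0. Columns were assigned to tissues by name. The design had foreseen this unit, so the main test was limma-trend on log2(signal + 1) in R 4.3.3 with limma 3.58.1, with 7 tissue groups in 1 fit of 22 libraries and Benjamini-Hochberg adjustment over 16917 genes. Rebuilt reads are the signal divided by what 1 read is worth, the most likely step between 0.3 and 12 given a library's values from 15 to 1500. On simulated data 19 of 20 steps were found within 1%. On simulated counts for kidney against the other 6 tissues (16917 genes), the test recovered 8% of genes changed 2-fold and 100% of those changed 8-fold. Genes at 0 may lie below what the depth can show. Exonic lengths came from GENCODE M21, matched for 96.2% of genes by identifier, and coordinates from the table's own columns. RefSeq gave the microRNA and promoter sequences. The rule for named genes took every HoxC member and, for each, the 3 genes of highest r; some genes it named are not reported here. Alternatives were a pseudocount of 10, no filter, other scalings, array weights, edgeR 4.0.16 and DESeq2 1.42.0 on rebuilt reads, the replicate number as a block and leaving out each library. Members and lists were chosen with earlier results of these data known.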

Additional observations from a re-analysis of the deposited data

How the results depend on the processing

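The 7 HoxC genes passed over the tissues under every alternative run. Of 30 differences between a tissue and the other 6, 13 kept their call under every alternative run: Hoxc6, Hoxc8, Hoxc9 and Hoxc10 in kidney, Hoxc4, Hoxc5 and Hoxc6 in intestine, Hoxc9 and Hoxc10 in bladder, Hoxc4, Hoxc5 and Hoxc6 in heart, and Hoxc6 in lung. Of 77 pair differences 46 did. The cause of the others was not tested. Hoxc9 in aorta reversed, to 0.83 under quantile normalisation, 0.51 with edgeR on rebuilt reads and 0.39 with DESeq2. With quantile normalisation the count lower became 0 in aorta, 3 in heart, 5 in lung and 4 in stomach, and the count higher in stomach became 0. With array weights the count higher in aorta became 0, and the counts lower became 0 in aorta, 6 in lung, 4 in stomach and 1 in bladder. With edgeR the counts lower became 0 in aorta, 3 in heart, 1 in lung, 0 in stomach, 0 in intestine and 0 in bladder, and with DESeq2 0 in aorta and 1 in bladder. A pseudocount of 10 gave 3 lower in aorta and 5 in lung, and no filter gave 1 higher in aorta. Leaving out the aorta libraries, or these and heart 3 (chosen after seeing the data), gave 5 lower in lung each.

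Leaving out 1 library at a time gave 1 to 3 higher and 0 to 2 lower in aorta, 4 to 7 lower in heart and 1 to 4 lower in lung. It gave 0 to 2 higher and 2 to 3 lower in stomach, 3 higher and 2 to 3 lower in intestine, 5 higher in kidney, 2 to 3 higher and 0 to 3 lower in bladder, and 72 to 87 pair differences. With the replicate number as a block, 7 genes passed over the tissues, 29 of 30 tissue differences and 72 of 77 pair differences kept their call, and Hoxc8 in heart was lost (-3.30, limma adjusted p = 0.0561). Libraries with the same number in different tissues had a median r of -0.01 between their deviations, against 0.009 for different numbers. Of the former 3 of 63 were over 0.1, the highest at 0.26, and of the latter 8 of 144. With so few libraries per tissue, this cannot show whether libraries with the same number share a mouse or batch. Depth limits the aorta libraries and heart 3, where a signal below 9.9 to 28.3 is under 3 reads.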
